A study of Oryza sativa Japonica Group with 6 samples.

Results

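The methionine to phytosiderophore route of rice was followed in accessory cells of the embryo sac. Its genes were those named SAM1, SAM2, SAM3, NAS1, NAS2, NAS3, NAAT1 or DMAS1, by symbol or synonym after a leading Os was dropped. Of these 8 symbols, 6 matched a gene on the array, and no gene was matched to SAM3 or DMAS1 here. The 6 genes, of 17905 genes that the array reads singly, were read by 7 of the 57258 probe sets that are not controls. The route was chosen by measured values: the log2 differences of a SAM2 probe set and of OsNAAT1 between the cell types had passed the threshold, so the differences of all 6 genes are a description. Where calls of these genes are mentioned they restate the values that chose the route and support nothing.

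S-adenosylmethionine (SAM) is made from methionine and ATP by SAM synthetases. It donates methyl groups throughout the cell and is the precursor of ethylene, of polyamines and of nicotianamine. Nicotianamine synthases join SAM molecules into nicotianamine, a metal chelator that moves iron, zinc and copper between plant cells. In grasses a nicotianamine aminotransferase and then a deoxymugineic acid synthase turn it into phytosiderophores, which roots release to bind ferric iron and take up again as a complex.

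The samples were 3 arrays of synergid cells and 3 arrays of antipodal cells of wild-type rice, Oryza sativa ssp. japonica cultivar Katy, grown in a greenhouse under long days and collected at anthesis. Synergids flank the egg cell where the pollen tube enters, and antipodals lie at the opposite end. Both were dissected from the ovule without enzymes and their RNA was amplified before it was hybridised. How many cells went into an array is unclear, since the labelling protocol describes egg cells and zygotes. The labels call the arrays biological replicates but name no separate plants or days, so every error below measures only the spread between these samples.

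The values are MAS5 signals, a linear brightness per probe set that was scaled to the same trimmed mean on each array. Median signals were 46.5 to 67.1 for synergids and 54.4 to 170.3 for antipodals. Antipodal array 2 had the median of 170.3 and correlated least with the others (mean Pearson r of 0.759 across tested probe sets, against 0.848 to 0.886). The hybridisation controls had a geometric mean signal of 59283 on this array, against 6131 to 12372 on the other arrays. What part this had in the differences below was not tested. A log2 difference below is the mean log2(signal + 16) of synergids minus that of antipodals, and its SE is limma's. Over all 34355 probe sets bright enough to be tested the median log2 difference was -0.08.

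No gene was matched to the synergid or antipodal marker symbols chosen (MYB98, FER, LRE, LLG1, NTA and AML1), so the labels could not be checked against markers of either cell type. Markers chosen for neighbouring tissue gave signal on all arrays, but no detection calls were given and some genes were dim. Whether that signal came from neighbouring tissue was not tested. Of 7 ovule and nucellus markers, 4 had every synergid array above every antipodal array (MADS13, MADS21, MADS29 and MADS3), as did 7.42% of all tested genes read with 1 probe set each. The other 3 ovule markers overlapped, with log2 differences of 0.33 (MSP1), -0.03 (MADS58) and -0.73 (TDL1A). The summed signal of these 7 was 11999 to 17067 in synergids and 5544 to 13781 in antipodals. The egg cell list held WOX8 and WOX9, with a summed signal of 358 to 552 in synergids and 108 to 290 in antipodals. The green tissue list (4 genes) ran from 4415 to 10351 and from 6488 to 12680, and the epidermis list (5 genes) from 21127 to 27195 and from 13515 to 23315. Within the epidermis list ROC3 went the other way, with 569, 215 and 250 in synergids and 1119, 1625 and 1030 in antipodals (log2 difference -1.92, limma adjusted p = 0.159). The endosperm marker NF-YB1 was dim, at 3.68 to 34.9 in synergids and 37.7 to 229 in antipodals. All 19 marker genes were tested and limma called 0 of them, while 7 had an unadjusted p under 0.05, against 0.383% called and 9.85% with such a p over all 15936 tested genes. Their part in the differences below was not tested. In such cell samples, fewer cells of a type and less RNA per cell cannot be told apart.

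Along the route, the aminotransferase gene OsNAAT1 and both probe sets of SAM2 were brighter on every synergid array than on any antipodal array, while SAM1, OsNAS1, OsNAS2 and NAS3 overlapped between the cell types. Of the 7 probe sets 6 were bright enough to be tested, and all 6 had a log2 difference above 0. A call, an adjusted p under 0.05 over all tested probe sets, was made for 2 of them, both higher in synergids, against 0.256% of all tested probe sets, and 0 were called lower, against 0.064%. The lack of overlap with synergids higher, met by 3 of the 6, was met by 6.17% of all tested probe sets. The choice of the route used this contrast, so nothing is read from these shares.

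**Figure D1:**
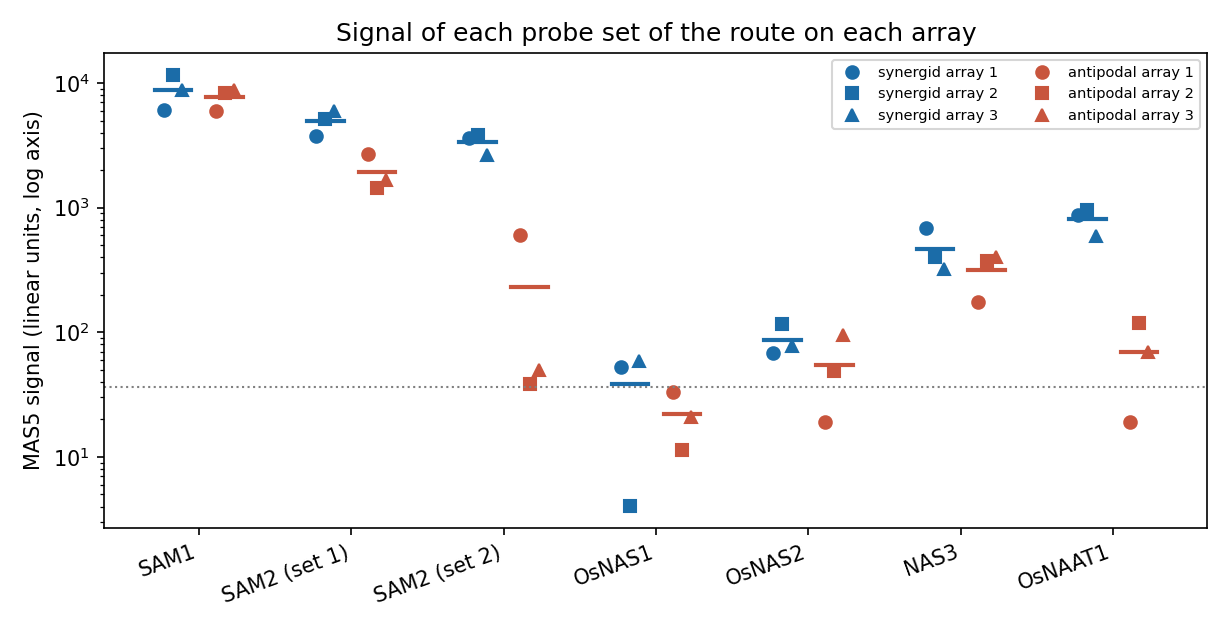
MAS5 signal (log axis) of the 7 probe sets of the route on each of the 6 arrays; blue marks are synergids, red marks antipodals, marker shapes are array numbers, bars are group means (n = 3) and the dotted line is the signal of 36.7 under which a mean log2 value was not tested. SAM2 and OsNAAT1 separate the cell types, and the other genes do not.

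SAM synthetases open the route. SAM1 (LOC4337733) had signals of 6036, 11694 and 8812 on synergid arrays 1, 2 and 3 and of 5950, 8371 and 8772 on antipodal arrays 1, 2 and 3. The groups overlapped almost entirely, and array 1 was the dimmest in each. The means were 8847 ± 2829 and 7698 ± 1527 (SD, n = 3 each), and the log2 difference was 0.17 (SE 0.33, 95% interval -0.54 to 0.88). It fell to -0.06 without synergid array 2 and to -0.01 without antipodal array 1, so its sign rests on single arrays.

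SAM2 (LOC4326996), the other SAM synthetase gene, was read by a pair of probe sets that agreed in direction but not in size. They are called first and second after the serial number in their Affymetrix names. The first had 3774, 5128 and 5958 in synergids and 2673, 1431 and 1668 in antipodals. Every synergid array was brighter than every antipodal array, but by little at the closest point, where the lowest synergid signal was 1.41 times the highest antipodal one. The log2 difference was 1.38 (SE 0.35, 95% interval 0.63 to 2.14), a 2.61-fold difference on the log2(signal + 16) scale. Of all tested probe sets 3.22% had a higher log2 difference. This probe set was not called, except within 4 arrays that share a longer number format in the deposited table (all but synergid 1 and antipodal 1), where its log2 difference was 1.83.

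The second SAM2 probe set had 3598, 3814 and 2636 in synergids and 606, 38.7 and 49.5 in antipodals. Synergid arrays were close together, whereas antipodal array 1 stood far above the other antipodal arrays, a range of 3.51 on the log2 scale against 0.53 among synergids. The lowest synergid signal was still 4.35 times the highest antipodal one. The means were 3350 ± 627 and 231 ± 324 (SD, n = 3 each), and the log2 difference was 4.67 (SE 0.72, 95% interval 3.13 to 6.21). Only 0.102% of tested probe sets had a higher one. Its pooled SD within cell types was 1.396 (log2), against 0.406 for the first probe set and a median of 0.716 over all tested probe sets.

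The size of this second difference followed antipodal array 1 in part. Without that array the log2 difference was 5.79, and without antipodal array 2 it was 4.04, where the call was lost. The call was lost also without synergid array 2, at a log2 difference of 4.57. The sign could not turn in such runs, because the groups do not overlap.

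Set against each other on the same array, the first SAM2 probe set exceeded the second by a log2 value of 0.07, 0.43 and 1.17 on synergid arrays 1, 2 and 3 and by 2.11, 4.73 and 4.68 on antipodal arrays 1, 2 and 3. The gap was smaller on every synergid array than on any antipodal array, with means of 0.56 ± 0.56 and 3.84 ± 1.497 (SD, n = 3 each). On antipodal arrays 2 and 3 the second probe set was near the filter, so the size of the gap there depends on the pseudocount. The probe sets therefore reported unequal differences between the cell types for 1 annotated gene, and the tables used here do not give the stretch of transcript that each one reads. The 3′ over 5′ signal ratio of the rice actin control, which rises as less of a transcript beyond its 3′ end is read, was 238, 77.9 and 91.6 for synergids and 221, 87.8 and 689 for antipodals. Its part in the gap was not tested.

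**Figure D2:**
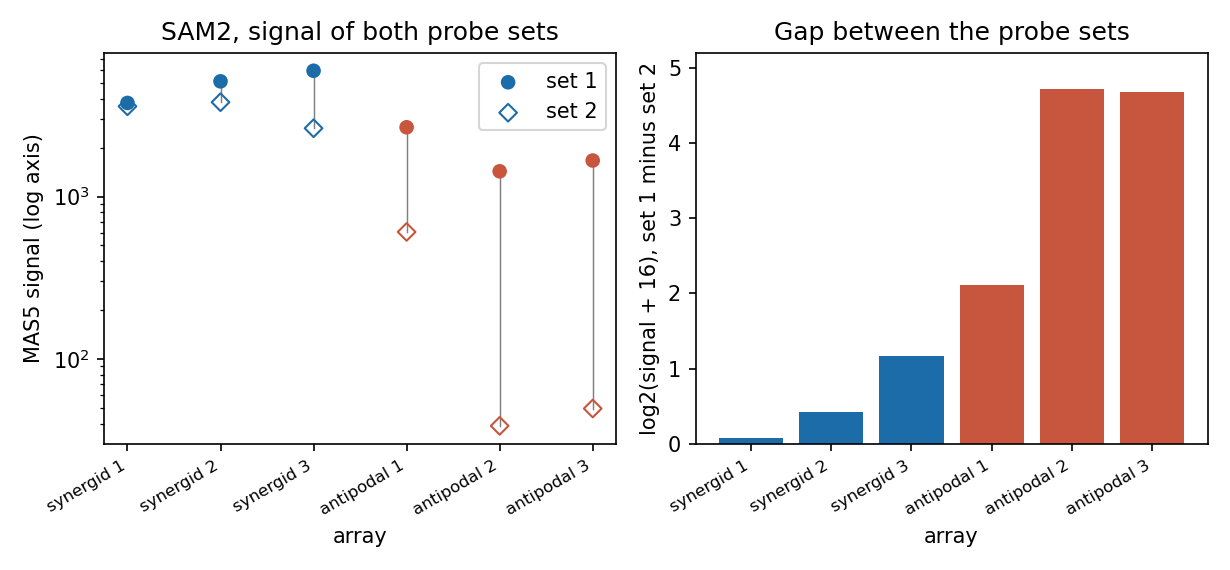
Left, MAS5 signal (log axis) of both SAM2 probe sets on each array, filled for the first (set 1) and open for the second (set 2); right, the log2 gap between them on that array. Blue is synergid and red antipodal, and the gap runs from 0.07 to 1.17 in synergids and from 2.11 to 4.73 in antipodals.

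Nicotianamine synthases form the middle of the route, and none of their genes separated the cell types. OsNAS1 (LOC4332608) was dim, with 52.2, 4.04 and 59.04 in synergids and 33.4, 11.3 and 21.1 in antipodals, and it was too dim on average to be tested. OsNAS2 (LOC4332607), its neighbour in the gene order, had 68.5, 116 and 77.0 in synergids and 19.2, 49.2 and 95.2 in antipodals. Antipodal array 3 lay within the synergid range. The log2 difference of OsNAS2 was 0.67 (SE 0.77, 95% interval -0.97 to 2.32), an interval wide enough to hold a difference in either direction. OsNAS1 and OsNAS2 are close copies in rice, and no source used here says how far each probe set reads the other's transcript.

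NAS3 (LOC4344361), the third nicotianamine synthase gene, was brighter than the filter on every array, with 685, 402 and 321 in synergids and 174, 371 and 399 in antipodals. Array 1 was the highest of the synergids and the lowest of the antipodals, and the remaining arrays of both cell types lay between 321 and 402. The log2 difference was 0.57 (SE 0.54, 95% interval -0.58 to 1.71). Within the 4 arrays other than synergid 1 and antipodal 1 it was -0.09. These are the 4 arrays of the longer number format, a feature noticed in the data and given no meaning by the labels.

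OsNAAT1 (LOC9267778), which encodes the aminotransferase that commits nicotianamine to phytosiderophore synthesis, had 876, 963 and 593 in synergids and 19.1, 119 and 69.7 in antipodals. The lowest synergid signal was 4.97 times the highest antipodal one. Antipodal signals spread over a log2 range of 1.95 and reached below the filter on array 1, whereas synergid signals spread over 0.69. The log2 difference was 3.45 (SE 0.63, 95% interval 2.10 to 4.79), and 0.215% of tested probe sets had a higher one.

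Because the antipodal signals of OsNAAT1 were low, the size of its difference depended on the pseudocount. The log2 difference was 2.76 with a pseudocount of 64 and 3.84 with a pseudocount of 1, where the call was lost. Leaving out synergid array 1, 2 or 3 gave 3.38, 3.31 and 3.66, each with the call lost, and leaving out antipodal array 1, 2 or 3 gave 2.91, 3.88 and 3.55, each with the call kept. Within the 4 arrays of the longer number format the log2 difference was 2.84, and it was not called.

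**Figure D3:**
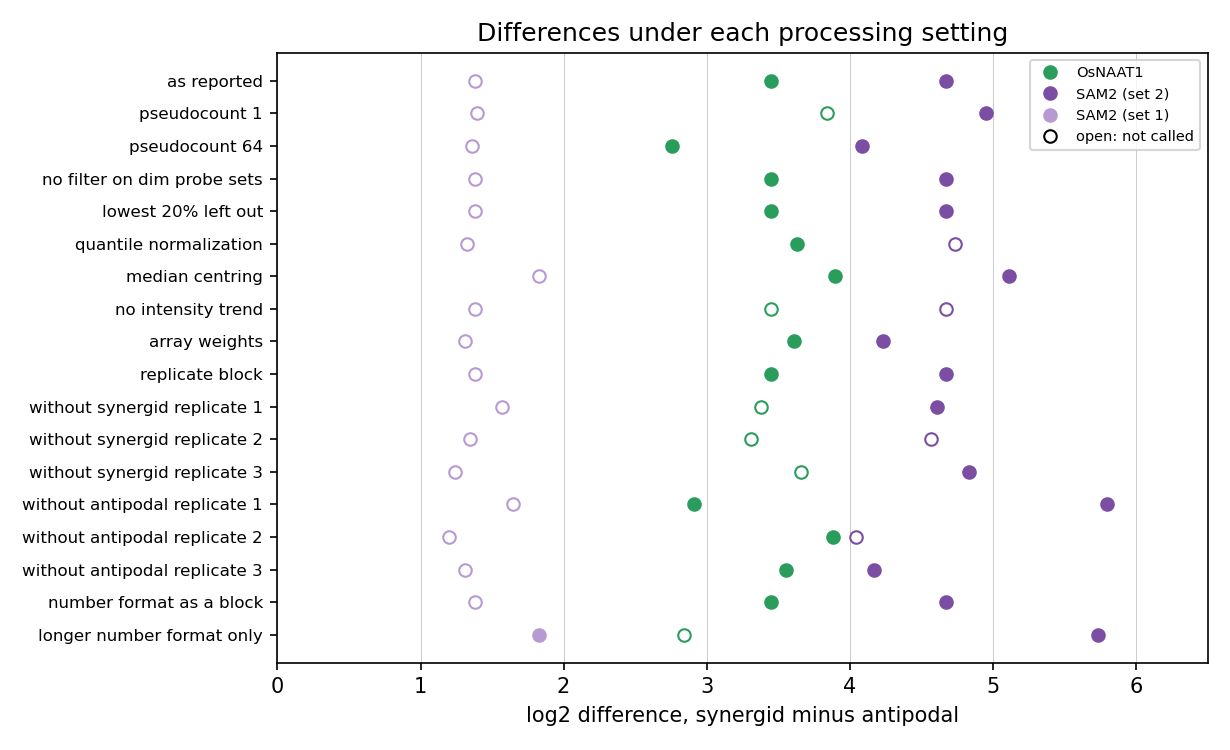
Log2 difference, synergid minus antipodal, of OsNAAT1 and of both SAM2 probe sets as reported and under 17 other processing settings; filled marks are calls (adjusted p under 0.05 over all tested probe sets) and open marks are not. The second SAM2 probe set runs from 4.04 to 5.79, OsNAAT1 from 2.76 to 3.90 and the first SAM2 probe set from 1.20 to 1.83.

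The members that separated the cell types shared the order of the arrays in part. OsNAAT1 and the second SAM2 probe set had the same order among synergids, with array 2 the brightest and array 3 the dimmest, whereas array 3 was the brightest for the first SAM2 probe set. Antipodal array 1 was the brightest antipodal array and array 2 the dimmest for both SAM2 probe sets, and for OsNAAT1 array 1 was the dimmest and array 2 the brightest. The OsNAAT1 signal on antipodal array 2 (119) was nevertheless below that array's median (170.3). On antipodal array 3 the OsNAAT1 signal (69.7) was above the median (54.4). After each probe set was centred on its own mean, the root mean square difference over the 6 arrays was 1.79 (log2) between OsNAAT1 and the second SAM2 probe set and 1.38 between OsNAAT1 and the first. It was 1.88 between the SAM2 probe sets, more than between the first of them and SAM1 (0.77). The lowest value between members was 0.43, for SAM1 and OsNAS2. This measure is not scaled, so probe sets that vary little come out close and a strongly changed one comes out far from the rest.

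By the same measure, the named genes outside the route with the pattern most like OsNAAT1, among 2183 tested genes with an informative name, were CP1, a cysteine protease gene (0.86), OC-VIII, a cystatin gene (0.89), and MAP70.2, a microtubule-associated protein gene (0.91). The median over these genes was 1.897. CP1 had 410, 623 and 284 in synergids and 74.6, 48.1 and 56.2 in antipodals. OC-VIII had 4081, 4647 and 2944 against 768, 766 and 1194. As in OsNAAT1 and the second SAM2 probe set, synergid array 2 was the brightest and synergid array 3 the dimmest of the synergids for both genes. That order follows in part from their choice by likeness to OsNAAT1 over the same arrays.

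The second SAM2 probe set was closest to ACA1 (0.78), cbp3, a serine carboxypeptidase gene (0.93), and CML32, a calmodulin-like gene (1.20), against a median of 2.64. ACA1 had 586, 509 and 442 in synergids and 136, 20.4 and 7.33 in antipodals. It shared with SAM2 the high antipodal array 1, a trait that its choice by likeness favoured. The first SAM2 probe set was closest to SIZ1, a SUMO ligase gene (0.23), ARF1, also listed as the auxin response factor OsARF16 (0.25), and MADS3, a floral organ identity gene (0.26), against a median of 0.90. MADS3 is also 1 of the ovule markers above, with 804, 887 and 1150 in synergids and 433, 341 and 446 in antipodals.

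The genes around the route were read with 1 probe set per gene, the brightest. The lists held 37 genes, of which 32 were tested, and limma called 0 of them at an adjusted p under 0.05, while 3 had an unadjusted p under 0.05. Over all 15936 tested genes the shares were 0.383% for calls and 9.85% for an unadjusted p under 0.05. The median log2 difference over all these genes was 0.01. Synergids were higher without overlap for 7.42% of them, and the share with antipodals higher was not counted.

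**Figure D4:**
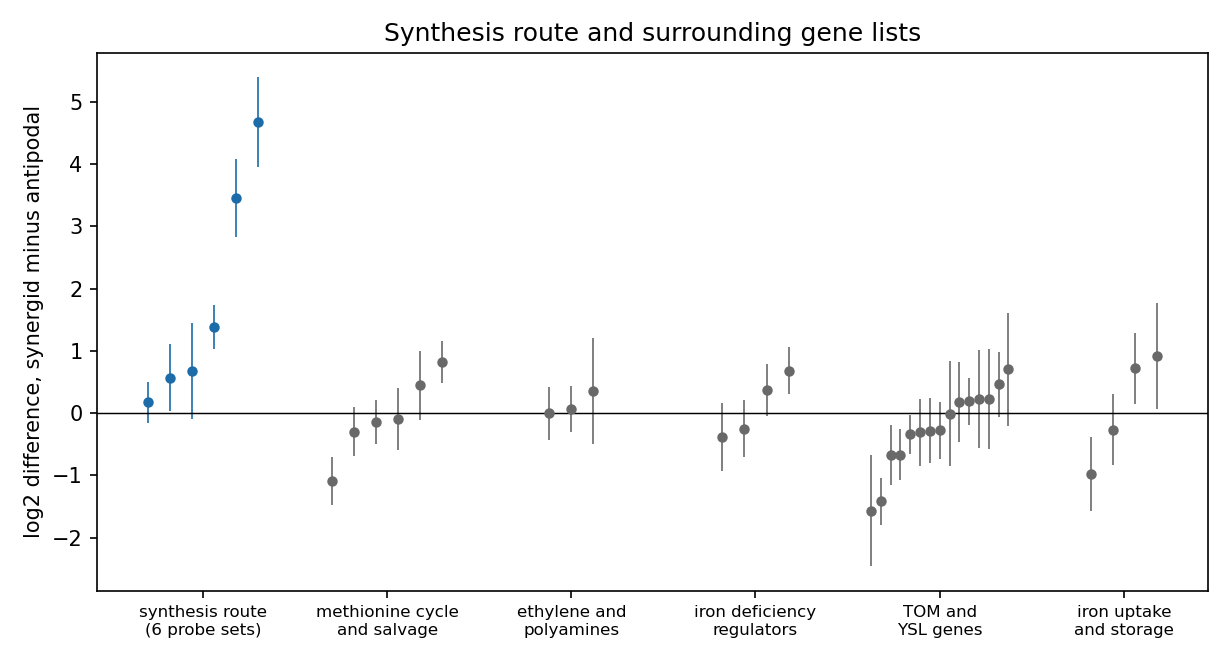
Log2 difference, synergid minus antipodal, with limma's SE as bars, for the 6 tested probe sets of the route (blue) and the 32 tested genes of the lists around it (grey, 1 probe set per gene), sorted within each list. Read with their brightest probe sets, the lists lie between -1.57 and 0.91. Other tested probe sets of their genes, not shown, reach -1.96 (NAC6) and 1.18 (IDI1). SAM2 reaches 4.67 with its second probe set and 1.38 with its brighter first one. The route was chosen by such values, so nothing is read from its distance to the lists.

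The methionine cycle and salvage list returns the methylthio group left by SAM use to methionine. In it 0 of 6 tested genes were called, and the median log2 difference was -0.12. The gene matched to ARD2 (-0.10) carries the symbol HSFA2D in the annotation, which leaves its identity unsettled. ARD4, an acireductone dioxygenase gene of the salvage cycle, had 634, 680 and 468 in synergids and 1254, 1498 and 1082 in antipodals. Antipodal arrays were higher without overlap (log2 difference -1.09, SE 0.39, limma adjusted p = 0.472). MTR1 had 3111, 4412 and 3913 in synergids and 2793, 1623 and 2125 in antipodals (0.82, SE 0.34, limma adjusted p = 0.547), but this symbol is also used for an anther protein and the annotation leaves its identity unsettled. IDI2, a methylthioribose-1-phosphate isomerase gene, and MTK1, the methylthioribose kinase gene, gave -0.30 and -0.14. Antipodals were higher without overlap for 2 genes of the list, ARD4 and IDI2, a share that was not counted over all tested genes. Synergids were higher without overlap for 1, MTR1, against 7.42% of all tested genes. Nothing is read from these counts.

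Among genes that draw on SAM for ethylene and polyamines, 0 of 3 tested were called, and the median log2 difference was 0.06. SAMDC, the SAM decarboxylase gene that feeds polyamine synthesis, had 14419, 13656 and 13154 in synergids and 18581, 6828 and 17870 in antipodals. Its antipodal arrays lay on both sides of the synergids (log2 difference 0.06, SE 0.37, limma adjusted p = 0.978). The sign turned without antipodal array 2, at -0.41. ACS2, an ethylene precursor synthase gene, was dim and variable, with 15.0, 48.8 and 142.9 against 67.2, 24.5 and 29.6 (log2 difference 0.35, SE 0.85, limma adjusted p = 0.937). Without synergid array 3 that difference was -0.26. ACO1, whose enzyme makes ethylene, had 1221 ± 547 and 1125 ± 66.7 (SD, n = 3 each).

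Of the iron deficiency regulators, 0 of 4 tested were called, with a median log2 difference of 0.06. IDEF1, a transcription factor gene of the rice iron deficiency response, had 556, 928 and 1021 in synergids and 620, 715 and 542 in antipodals, and the groups overlapped (0.37, SE 0.42, limma adjusted p = 0.854). NAC6, a stress-responsive NAC factor gene, had 5795, 3474 and 7473 against 2419, 3036 and 4982 (0.68, SE 0.38, limma adjusted p = 0.676). A dimmer NAC6 probe set went the other way, with means of 37.7 in synergids and 213 in antipodals (-1.96, limma adjusted p = 0.55). A further one, too dim to be tested, had means of 7.47 and 52.2, so the direction for NAC6 depends on the probe set. LOC4332972, which the tables list under both OsIRO2 and IRO3, had 564 ± 218 and 661 ± 179 (SD, n = 3 each).

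The transport list covers export of phytosiderophores and the YSL (yellow stripe-like) carriers of metal complexes with nicotianamine or phytosiderophore. Of its 17 genes 15 were tested, 0 were called, and 9 had a log2 difference below 0 (median -0.27). YSL12 had 3779, 3197 and 1402 in synergids and 7529, 7514 and 5807 in antipodals, higher in antipodals without overlap (log2 difference -1.42, SE 0.38, limma adjusted p = 0.224). It was 1 of 2 tested genes of the list with antipodals higher without overlap, a share that was not counted over all tested genes. Synergids were higher without overlap for 0 genes of the list, against 7.42% of all tested genes. Nothing is read from these counts. Leaving out synergid array 1, 2 or 3 kept the log2 difference of YSL12 below 0. The sign could not turn there, because the groups do not overlap. The call was made only within the 4 arrays of the longer number format, at -1.63. YSL10 was dim, with 15.4, 16.2 and 71.5 against 87.7, 392 and 38.3 (-1.57, SE 0.89, limma adjusted p = 0.686).

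YSL15, the carrier that takes up iron bound to phytosiderophore in rice roots, is given outside the naming rule because of that role. It was dim in both cell types, with 39.1, 147 and 75.6 in synergids and 30.4, 108 and 73.5 in antipodals (log2 difference 0.23, SE 0.78, limma adjusted p = 0.957). YSL16, a carrier of iron and copper complexes of nicotianamine in rice, had 897, 860 and 1016 against 2216, 894 and 1619 (-0.67, SE 0.41, limma adjusted p = 0.709). The list's TOM1 and TOM2 gave -0.34 and -0.31, but these symbols are also used for proteins unrelated to phytosiderophores, and the annotation leaves their identity unsettled.

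Among genes of iron uptake and storage, 4 of 6 were bright enough to be tested and 0 were called. The ferrous iron transporter genes IRT1 and IRT2 fell below the filter, with signals of 1.75 to 40.4 and of 3.86 to 55.5 over the 6 arrays. VIT2, a vacuolar iron transporter gene, had 1652, 716 and 1542 in synergids and 482, 389 and 2118 in antipodals (log2 difference 0.72, SE 0.58, limma adjusted p = 0.784), so antipodal array 3 was the highest of all. NRAMP5, a manganese and iron transporter gene, had 167, 231 and 270 against 306, 1030 and 282 (-0.98, SE 0.59, limma adjusted p = 0.706). Its antipodal arrays lay above the synergids, with array 2 far above the others.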

How the data were processed

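Affymetrix rice arrays of 3 synergid and 3 antipodal samples were used, grouped by title. The deposited table gives each probe set's intensity on a linear scale, made with GCOS 2.0 and MAS5, per the submitters' processing notes. The trimmed mean (2% off each end) was 500.1 on every array, and no further normalisation is recorded. Signals were transformed to log2(signal + 16). The 123 control probe sets and the dimmest 40% of the rest by mean log2 value (below 5.72, a signal of 36.7) were left out. The 34355 remaining probe sets were fitted in R 4.3.3 with limma 3.58.1 (lmFit, eBayes with an intensity trend, group as the only term; 4 residual and 10.6 prior degrees of freedom) and adjusted by Benjamini-Hochberg over all of them. The number of arrays limits the precision. Fold changes of dim probe sets are understated by the pseudocount.

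Genes were named from the platform annotation, updated by gene number through a RefSeq table of assembly ASM3414082v1 (22436 probe sets with 1 gene); without a genome, coordinates and sequences are left out. The route's genes and the lists around it were chosen with earlier results of these data known. Named are all members and the 3 closest patterns. For each list up to 2 called genes in each direction are named, or else the 2 with the smallest p. Genes outside this rule were chosen after their values were seen (YSL15, YSL16, MTK1, IDI1, IDI2, ARD2, ACO1, LOC4332972, TOM1, TOM2, IRT1 and IRT2). On simulated data for this comparison (34355 probe sets, 50 changed per size), the test recovered 4% of probe sets changed 2-fold, 38% changed 4-fold, 54% changed 8-fold and 90% changed 16-fold. The simulated noise was independent, with the same spread for probe sets of like brightness and no deviant array. Recovery in the measured data may therefore differ. Same-numbered arrays of the cell types had deviations from their group means that correlated at 0.22, 0.12 and 0.02 across probe sets. Differently numbered arrays were not compared in this way, so these values cannot decide whether the samples pair. The labels name no shared plant or day, so the numbers were not taken to pair the samples. In all, 17 other settings were run. Plots were made in Python 3.11.15 with matplotlib 3.10.9.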

Additional observations from a re-analysis of the deposited data

How the results depend on the processing

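Of the 7 probe sets of the route, 2 were called as reported, with 110 calls over all tested probe sets (88 higher and 22 lower in synergids) and 0 in the surrounding lists. The route's calls numbered 1 with a pseudocount of 1 (OsNAAT1 lost) and with quantile normalisation (the second SAM2 probe set lost), 0 without an intensity trend, and 0 to 2 when 1 array was left out. OsNAAT1 kept its call in 11 and the second SAM2 probe set in 13 of 17 settings. The cause of these losses was not tested. All calls numbered 31 without an intensity trend (31 higher, 0 lower), 193 with array weights (130 and 63), 293 with the replicate number as a block (149 and 144), and 42 (41 and 1, without synergid array 2) to 317 (96 and 221, without synergid array 1) when 1 array was left out. With the number format as a block there were 284 (137 and 147), and within its longer form 458 (239 and 219). There YSL12 (adjusted p = 0.0303) and the first SAM2 probe set (0.00896) gained a call and OsNAAT1 lost its own (0.0868); both settings were chosen after seeing the data. Calls were 73 higher and 3 lower with quantile normalisation and 75 and 1 with median centring, so the share of higher calls depends on the scaling as well as on the model and single arrays. The median log2 difference of tested probe sets moved from -0.08 to 0.05 and 0.37 under these scalings; under the latter SAM1 had 0.62, the second SAM2 probe set 5.12 and OsNAAT1 3.90, to be read against that median. The replicate block left the route at 2 calls and the lists at 0.

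Signs reversed for SAM1, NAS3, SAMDC and ACS2. SAM1 had -0.057 without synergid array 2 and -0.01 without antipodal array 1, and at most 0.42 with 1 array left out. NAS3 had -0.094 on the longer-format arrays, against 0.57 as reported. SAMDC had -0.26 with array weights and -0.41 to 0.31 with 1 array left out, the lowest without antipodal array 2. ACS2 had -0.26 to 0.92 with 1 array left out, the lowest without synergid array 3. Its highest value of all settings was 1.24, on the longer-format arrays. The other tested members kept their sign in the 17 settings. So did ARD4, MTR1, IDEF1, YSL10, YSL12, NRAMP5, VIT2 and the brightest NAC6 probe set. Settings that changed only the filter, the trend or a block returned the same log2 difference. Where the groups do not overlap, leaving out arrays could not turn the sign either. Genes of like pattern were not run under the 17 settings. Only 3 arrays per cell type and low signals limit what can be seen for OsNAS1, OsNAS2, YSL15, ACS2 and the antipodal side of OsNAAT1 and of the second SAM2 probe set.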
